A study of Sus scrofa with 12 samples.

Results

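FOS encodes a subunit of the AP-1 transcription factor, and its transcript varied 24.0-fold among muscle samples of 12 pigs. The animals were ordered by FOS level, and the 6 with the highest level (high-FOS animals) were set against the 6 with the lowest (low-FOS animals), which uses all 12 of the 12 animals sequenced. The groups were chosen on FOS, so its levels are given as a description and FOS was left out of every test. The study itself grouped these pigs (Sus scrofa, both sexes, 167 to 189 days old) by drip loss, the fluid that meat gives off after slaughter, into 6 high drip and 6 low drip animals. The high-FOS group held 2 high drip and 4 low drip animals, and the low-FOS group held 4 high drip and 2 low drip animals. No treatment, allele or breed is named in the labels, which call the tissue muscle and give no muscle by name.

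Immediate early genes are transcribed within minutes of a stimulus, without new protein synthesis, from promoters that kinase cascades switch on through factors such as SRF and CREB. Their products include transcription factors (the FOS, JUN, EGR, NR4A and KLF families), proteins that shut the response down again (phosphatases, Sprouty proteins, RNA-decay factors) and secreted signals (CCN1, HBEGF, chemokines). In skeletal muscle, contraction, stretch, adrenaline and injury are known to switch them on, and the transcripts are short-lived.

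RNA was sequenced from each animal and counted per gene, and each animal gave 1 library. Totals lay between 8009627 and 12622043 counts. Levels are given in CPM, counts scaled to a library size of 1000000 with TMM factors, and are compared between animals only, never between genes, since no gene length was used. ACTA1, skeletal muscle actin, and NEB, nebulin, were the 2 of 7 muscle markers that could be found by symbol. ACTA1 averaged 77061 ± 10970 CPM in high-FOS and 70915 ± 9140 CPM in low-FOS animals (SD, n = 6 each). The table of counts for 3 females (low drip replicates 1 and 2 and high drip replicate 2) is recorded in the series under another animal. Tables were therefore given to animals by the number they carry, which matched each animal's own second table in 737 to 745 of 770 counts, against at most 167 for any other pairing. The FOS order is a property of the libraries and is the same under either record. Transcripts of liver genes were present in 6 libraries, 3 of them high-FOS and 3 low-FOS.

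No label of the study differed between the FOS groups past the threshold. Females made up 4 of 6 high-FOS and 2 of 6 low-FOS animals, and high drip animals made up 2 of 6 high-FOS and 4 of 6 low-FOS animals (Fisher's exact test, two-sided, p = 0.567 for each, adjusted p = 0.820 over 4 comparisons). With the drip labels as recorded for the tables, each FOS group held 3 high drip animals. Mean age was 178 ± 6.87 days in high-FOS and 176 ± 6.69 days in low-FOS animals (exact permutation test, two-sided, p = 0.615). Liver transcripts were as frequent in each group (Fisher's exact test, p = 1). With 6 animals a side, Fisher's test could have called only a complete separation.

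FOS stood between 185 and 754 CPM in high-FOS and between 31.4 and 141 CPM in low-FOS animals, here as a share of the library total. The mean was 448 ± 246 CPM in high-FOS and 86.3 ± 44.0 CPM in low-FOS animals (SD, n = 6 each). Low drip replicate 3 was highest at 754 CPM, followed by low drip replicate 1 at 670 CPM and low drip replicate 5 at 568 CPM. These 3 animals stand well apart from the rest, and from there the order runs down in small steps. The boundary fell between low drip replicate 2, at 185 CPM just inside the high-FOS group, and low drip replicate 6, at 141 CPM just outside it. Counts behind these levels ran from 6917 down to 396 reads.

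**Figure D1:**
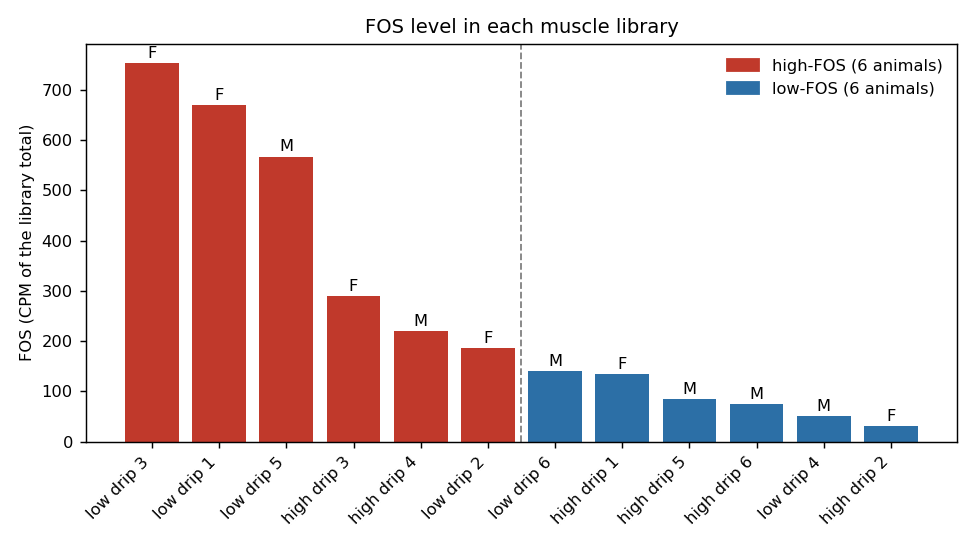
FOS level (CPM of the library total, linear axis) in each of the 12 muscle libraries, in order; F and M mark sex, and the dashed line separates the 6 high-FOS animals (left, red) from the 6 low-FOS animals (right, blue). Low drip replicates 3, 1 and 5 lie between 568 and 754 CPM and the other 9 animals between 31.4 and 290 CPM.

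CCN1, a secreted matrix protein of the CCN family and a textbook immediate early gene, was the gene that rose in high-FOS muscle past the threshold. Its levels were 49.6 CPM at the lowest, 87.2 at the median and 93.4 at the highest in high-FOS animals, against 17.6, 24.8 and 31.2 CPM in low-FOS animals. The groups did not overlap. In high-FOS animals the 4 highest lay between 85.8 and 93.4 CPM, with both high drip animals near 50, at 49.6 and 50.2 CPM. The low-FOS animals had the same order by drip. Low drip replicates 6 and 4 were at 31.2 and 29.1 CPM, and the high drip animals at 17.6 to 24.9 CPM. The log2 fold was 1.63 ± 0.19 (SE), and the ratio of the group means was 3.10 (edgeR's quasi-likelihood test, Benjamini-Hochberg adjusted p = 0.00252). It was 1.42 in males alone (adjusted p = 0.168), 1.82 in females alone (adjusted p = 0.0892) and 1.43 (adjusted p = 0.0901) without the 3 libraries recorded for another animal. Among libraries without liver transcripts it was 1.93 (adjusted p = 0.0111), and among those with them 1.29 (adjusted p = 0.748). With sex and drip as terms in the fit, the fold was 1.33 (adjusted p = 0.000387). The part of drip alone in the CCN1 fold was not tested.

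Across all 10092 features tested, 1 (0.00991%) was called higher in high-FOS animals and 0 (0%) lower at an adjusted p under 0.05. At an unadjusted p under 0.05, 374 (3.71%) were higher and 212 (2.1%) lower. DESeq2 called 31 features, all higher, with 588 at an unadjusted p under 0.05, of which 204 were lower. Of these 31, 9 were in the immediate early lists: CCN1, EGR1, EGR2, KLF4, NR4A2, CCN2, THBS1, HBEGF and CXCL2. The 31 also held PRSS23, HDAC9, PDLIM1, ZNF385B, SLC35F1, WLS, DNAJB5 and LMCD1. Adjusted p-values below are from edgeR unless another method is named. Limma's voom called 1, with 569 at an unadjusted p under 0.05, of which 208 were lower. In at least 1 of the 31 settings tried 41 features were called, all of them higher in high-FOS animals. Of the 41, 11 were in the immediate early lists, which held 33 of the 10092 features tested. The settings reuse the same animals, so they are not independent, and some of the 41 were called in 1 setting alone. Without low drip replicate 6, the animal just outside the boundary, 19 features were called, and without low drip replicate 3 there were 6. Leaving out high drip replicate 3 gave 5. In bulk tissue, more cells that express a gene and more transcript per cell cannot be told apart.

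The immediate early transcription factors other than FOS mostly had higher levels in high-FOS muscle. Of 24 listed, 16 had an ID with that symbol and 14 passed the filter on low counts, and all 14 had a positive fold, with a median log2 fold of 1.04 against -0.0045 over all features. At an unadjusted p under 0.05, 12 of the 14 were higher, against 3.71% of all features, and none passed the adjusted threshold with edgeR. A gene can pass the filter through the group where it is high, so these counts are a description and not a test of the list. No ID used here carries the symbols FOSB, FOSL2, JUN, JUND, NR4A1, KLF2 or KLF6, so those relatives are not analysed here.

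EGR1, a zinc finger factor that serum, stretch and contraction switch on, had the largest fold of all features tested. Its levels were 23.8, 69.6 and 153 CPM (lowest, median, highest) in high-FOS animals, against 9.91, 11.0 and 30.3 CPM in low-FOS animals. High drip replicate 3 was the single high-FOS animal within the low-FOS range. The log2 fold was 2.29 ± 0.41 (adjusted p = 0.0794 with edgeR and 0.000904 with DESeq2). EGR2, a relative of EGR1, had 1.38, 3.82 and 5.95 CPM in high-FOS and 0.779, 0.973 and 2.73 CPM in low-FOS animals, with a fold of 1.54 ± 0.38 (adjusted p = 0.304). The same high drip replicate 3 was the lowest high-FOS animal for EGR2.

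KLF4, a Krüppel-like factor, separated the groups completely, at 18.4, 22.0 and 35.5 CPM in high-FOS and 8.83, 10.3 and 18.1 CPM in low-FOS animals. Its highest low-FOS value, in low drip replicate 6, came just below the lowest high-FOS one, and the other 5 low-FOS animals were at or below 10.6 CPM. The fold was 1.09 ± 0.20 (adjusted p = 0.0854). IER5, an early response protein that acts on heat shock factor 1, was the other transcription regulator without overlap, at 13.0, 13.7 and 17.6 CPM in high-FOS and 5.37, 10.5 and 12.8 CPM in low-FOS animals (fold 0.58 ± 0.18, adjusted p = 0.544).

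The orphan nuclear receptors NR4A2 and NR4A3, of a family that exercise is known to switch on in muscle, had their highest levels in different animals. Their folds were not compared by a test. NR4A2 had 3.93, 8.71 and 13.2 CPM in high-FOS animals, against 2.73, 3.74 and 4.58 CPM in low-FOS animals (fold 1.18 ± 0.24, adjusted p = 0.155). Its highest level fell in low drip replicate 3, which also had the highest FOS. NR4A3 had 17.4, 33.8 and 351 CPM in high-FOS animals, against 7.52, 18.9 and 125 CPM in low-FOS animals (fold 1.55 ± 0.81, unadjusted p = 0.0746). Its 3 highest animals were low drip replicate 5 at 351 CPM, high drip replicate 4 at 164 CPM and low drip replicate 6 at 125 CPM, all male and all with liver transcripts. Low drip replicate 3 had 19.4 CPM. The NR4A3 fold was 1.93 among libraries with liver transcripts and 0.13 among those without, a difference that was not tested.

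ATF3, a stress-induced factor of the ATF family, had 389, 573 and 1135 CPM in high-FOS animals, against 67.3, 244 and 902 CPM in low-FOS animals (fold 0.98 ± 0.44, adjusted p = 0.825). The groups overlapped through 1 low-FOS animal, low drip replicate 6, at 902 CPM; the other 5 were at or below 349 CPM. CSRNP1, a nuclear protein of the early response, had the same shape, with 27.2, 45.4 and 67.9 CPM in high-FOS and 4.06, 13.2 and 43.2 CPM in low-FOS animals (fold 1.43 ± 0.42). MAFF, a small MAF factor, had 20.2, 60.8 and 137 CPM in high-FOS and 9.15, 23.4 and 76.7 CPM in low-FOS animals (fold 1.27 ± 0.47). In each of these 3 genes low drip replicate 6 had the highest low-FOS level.

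MYC had a fold of 0.90 ± 0.25, FOSL1, another FOS relative, 0.87 ± 0.27, KLF10 0.73 ± 0.30 and IER2 0.67 ± 0.31, with adjusted p between 0.437 and 0.839. KLF10 rested on high drip replicate 3, at 421 CPM, where the other high-FOS animals had 79.4 to 218 CPM and the low-FOS animals 101 to 134 CPM. JUNB, a partner of FOS in AP-1, showed no clear difference between the groups, and its fold was imprecise. It had 2.23, 11.6 and 33.3 CPM in high-FOS animals, against 3.78, 8.88 and 26.8 CPM in low-FOS animals, with a fold of 0.31 ± 0.52 (adjusted p = 0.994). High drip replicate 3 was the lowest of all 12 animals for JUNB, and the low-FOS animal high drip replicate 1 was the second highest.

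**Figure D2:**
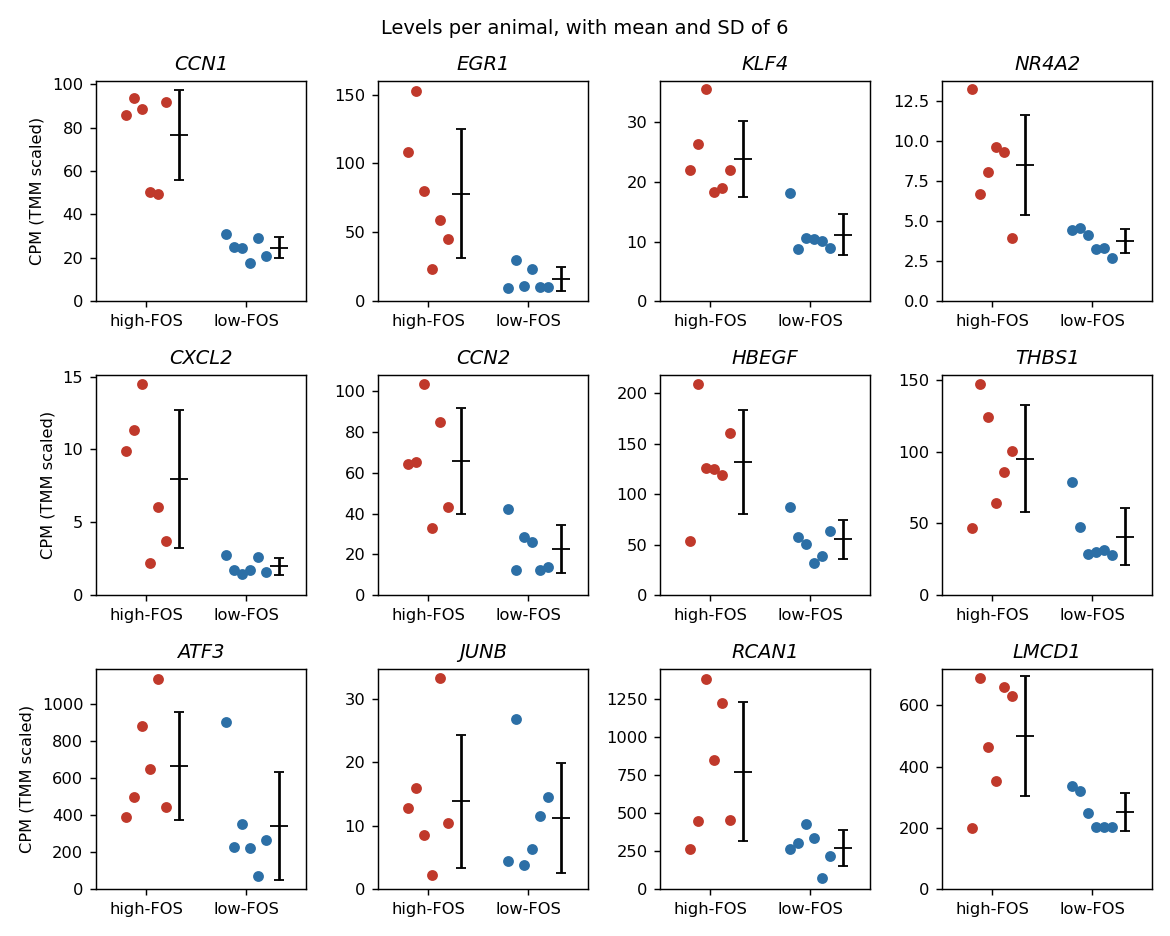
Level (CPM with TMM scaling, linear axes from 0) of 12 genes in each animal, with the 6 high-FOS animals left in red and the 6 low-FOS animals right in blue, in FOS order within each group; black marks give the mean and SD of 6. CCN1 and KLF4 do not overlap between groups, ATF3 overlaps through a low-FOS animal at 902 CPM, and JUNB overlaps throughout.

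Of 30 feedback regulators listed, which cut the response short, 11 had an ID and 9 were tested; 7 had a positive and 2 a negative fold, and the median was 0.28. With an unadjusted p under 0.05, 3 of the 9 were higher and 0 lower, beside 3.71% and 2.1% of all features. PPP1R15A, which restores translation after stress by directing a phosphatase to eIF2α, had 120, 132 and 201 CPM in high-FOS animals, against 27.9, 54.3 and 154 CPM in low-FOS animals (fold 1.01 ± 0.30, adjusted p = 0.544). Low drip replicate 6 again was the highest low-FOS animal, and the other 5 were at or below 81.3 CPM. IER3 had 3.40, 7.33 and 12.5 CPM in high-FOS and 1.73, 3.04 and 6.01 CPM in low-FOS animals (fold 1.07 ± 0.32), and SPRY1, a Sprouty inhibitor of growth factor signalling, a fold of 0.36 ± 0.16. The dual-specificity phosphatase DUSP4 (0.17), the NF-kB inhibitors NFKBIA (0.20) and TNFAIP3 (-0.19), the RNA-decay factor ZFP36L1 (0.28), GADD45B (0.35) and SPRED2 (-0.06) had smaller folds, each with overlapping groups. The folds of DUSP4, NFKBIA, TNFAIP3 and SPRED2 changed sign in other settings. DUSP1 and SOCS3 are not analysed here, since no ID carries these symbols.

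Of 21 secreted and surface proteins of the early response listed, 14 had an ID and 10 were tested; 9 had a positive and 1 a negative fold, and the median was 1.02. With an unadjusted p under 0.05, 6 of the 10 were higher and 0 lower, beside 3.71% and 2.1% of all features. CCN2, the relative of CCN1 known as connective tissue growth factor, had 33.0, 64.7 and 103 CPM in high-FOS animals, against 12.4, 19.96 and 42.1 CPM in low-FOS animals (fold 1.54 ± 0.33, adjusted p = 0.174). High drip replicate 3, at 33.0 CPM, was the high-FOS animal below the highest low-FOS one, low drip replicate 6. THBS1, thrombospondin 1, had 46.9, 93.2 and 147 CPM in high-FOS and 27.9, 30.5 and 79.0 CPM in low-FOS animals (fold 1.22 ± 0.30, adjusted p = 0.304). HBEGF, a membrane-bound ligand of the EGF receptor, had 53.4, 125 and 209 CPM in high-FOS and 32.2, 54.1 and 87.4 CPM in low-FOS animals (fold 1.26 ± 0.28, adjusted p = 0.206). For both of these, low drip replicate 3, the animal with the most FOS, was the lowest high-FOS animal and lay within the low-FOS range.

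CXCL2, a chemokine that draws neutrophils, had 2.23, 7.99 and 14.5 CPM in high-FOS animals, against 1.42, 1.74 and 2.77 CPM in low-FOS animals (fold 2.0 ± 0.39, adjusted p = 0.0995). It belongs to a family of near-identical chemokine genes, so its counts are uncertain. The other chemokine tested, CCL2, had a fold of -0.03 ± 0.58, and PLAU, the urokinase protease, 0.06 ± 0.39. In both, the highest of all 12 animals was high drip replicate 1, a low-FOS animal, at 22.1 CPM for CCL2 and 64.1 CPM for PLAU. The proteases ADAMTS4 and ADAMTS1 had folds of 0.83 ± 0.45 and 0.64 ± 0.24, and VEGFA, the endothelial growth factor, 0.52 ± 0.29. The folds of JUNB, CCL2 and PLAU were 1.67, 1.33 and 0.95 in males, and -0.99, -1.31 and -0.86 in females. The difference between the sexes was not tested, and no p within a sex passed the threshold. The only low-FOS females were high drip replicates 1 and 2, and the only high-FOS males were low drip replicate 5 and high drip replicate 4. With both sexes in the fit but high drip replicate 1 left out, folds were 0.77 for JUNB, 0.76 for CCL2 and 0.57 for PLAU. The folds within a sex thus rest on few animals.

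Over the 3 lists together, 33 genes were tested, of which 30 had a positive fold, with a median of 0.87. At an unadjusted p under 0.05, 21 of the 33 were higher and 0 lower, beside 3.71% and 2.1% of all features. In 3 genes (CCN1, KLF4, IER5) each high-FOS animal lay above each low-FOS animal, beside 0.198% of all features. The count of positive folds ranged from 27 to 31 when 1 library was left out at a time.

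**Figure D3:**
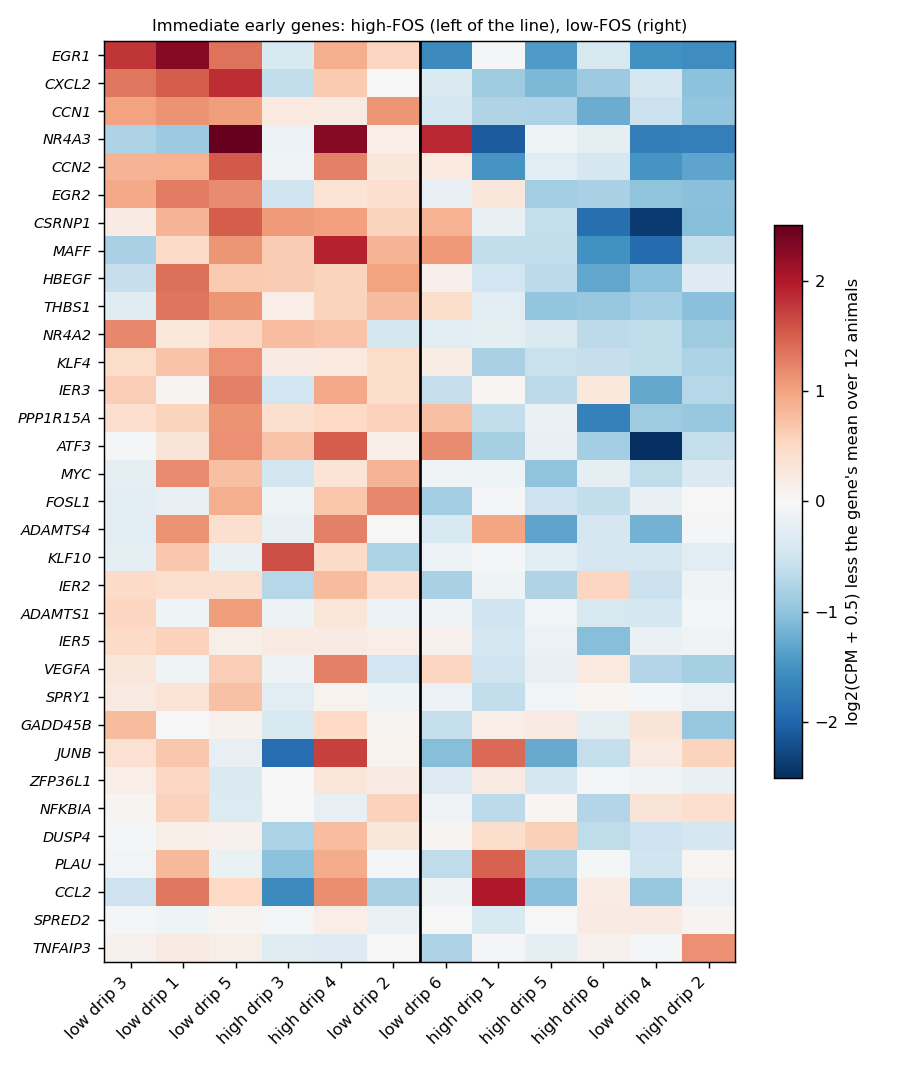
Level of the 33 immediate early genes tested (rows, by fold) in the 12 animals (columns, in FOS order; high-FOS left of the line, low-FOS right), as log2(CPM + 0.5) less the gene's mean over all animals. Most rows are red on the left and blue on the right, low drip replicate 6 is red for NR4A3, ATF3 and MAFF, and the bottom rows (JUNB to TNFAIP3) show no such split.

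The animals did not line up on a single scale. A list score, each member's log2(CPM + 0.5) centred on its mean of 12 animals and averaged over the list, was highest for the 33 early genes in low drip replicate 5 (0.75) and high drip replicate 4 (0.73), which had ranks 3 and 5 for FOS. Low drip replicate 3, at rank 1 for FOS, had a score of 0.25. High drip replicate 3, at rank 4, had -0.11, below low drip replicate 6 of the low-FOS group at -0.06. The other low-FOS animals lay between -0.73 and -0.17. High drip replicate 3 thus had high levels of FOS, KLF10, NR4A2 and CSRNP1 together with the lowest high-FOS levels of EGR1, EGR2, CCN2, CXCL2 and JUNB.

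Genes known to respond to contraction or load formed the next list with a raised median. Of 18 listed, 13 were tested; 11 had a positive and 2 a negative fold, and the median was 0.47. At an unadjusted p under 0.05, 6 were higher and 1 was lower, beside 3.71% and 2.1% of all features. RCAN1, an inhibitor of calcineurin that calcium signalling switches on, had 264, 652 and 1386 CPM in high-FOS animals, against 73.0, 282 and 429 CPM in low-FOS animals (fold 1.52 ± 0.41, adjusted p = 0.411). The 3 highest animals, low drip replicate 5, high drip replicate 4 and high drip replicate 3, were the high-FOS animals with liver transcripts. The RCAN1 fold was 2.15 among libraries with liver transcripts (adjusted p = 0.0187) and 0.48 among those without (adjusted p = 0.942). Whether the 2 folds differ was not tested.

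LMCD1, a LIM-domain protein that acts on calcineurin signalling in mouse muscle, had 198, 546 and 690 CPM in high-FOS and 201, 226 and 336 CPM in low-FOS animals (fold 0.98 ± 0.25, adjusted p = 0.389). CSRP3, a Z-disc protein that senses stretch, had 397, 547 and 1185 CPM in high-FOS and 77.6, 261 and 554 CPM in low-FOS animals (fold 1.34 ± 0.38, adjusted p = 0.468). For RCAN1 and LMCD1 low drip replicate 3 was the lowest high-FOS animal, and for LMCD1 the lowest of all 12. The mitochondrial carrier SLC25A25 (0.66), the actin-binding protein XIRP2 (0.47), the myosin-binding protein MYBPH (0.37) and the ankyrin repeat protein ANKRD1 (0.85) also had positive folds, while SESN1, a sestrin, had -0.36 and MSTN, myostatin, -0.43. With single libraries left out, the median of the list ranged from 0.39, without high drip replicate 6, to 0.65, without low drip replicate 6.

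Genes of the signalling chain above the response, in contrast, had list medians near the -0.0045 of all features. Of 19 tested members of the MAP kinase, SRF and CREB list, 11 had a positive and 8 a negative fold, with a median of 0.04. Over all features tested, 48.5% had a positive fold. At an unadjusted p under 0.05, 0 of the 19 were higher and 1 was lower, beside 3.71% and 2.1% of all features. The lower one was RPS6KA1, a ribosomal S6 kinase, at 2.89 ± 0.56 CPM in high-FOS and 4.14 ± 1.27 CPM in low-FOS animals (fold -0.51 ± 0.22). In the cAMP and adrenergic list 4 genes were tested, with 3 positive folds and a median of 0.05. At the same unadjusted threshold 0 of the 4 were higher and 1 was lower. The lower one was CITED2, which competes with transcription factors for the coactivators CBP and p300. Its fold was -0.58 ± 0.24 (edgeR, unadjusted p = 0.0276, adjusted p = 0.778). Transcript levels do not measure the phosphorylation that carries these signals.

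In the hormone, oxygen and clock lists 0 members passed the adjusted threshold, and 48.5% of all features tested had a positive fold. Of 8 glucocorticoid responsive genes, 6 had a positive fold (median 0.15), with PER1 at 153 ± 50.4 CPM in high-FOS and 103 ± 24.1 CPM in low-FOS animals (fold 0.56 ± 0.20) and ZBTB16 at 0.28 ± 0.12. FKBP5, a co-chaperone of steroid receptors that glucocorticoids induce, averaged 96.9 ± 50.9 CPM in high-FOS and 93.4 ± 46.1 CPM in low-FOS animals. PER1 is also a clock gene, and of 12 clock genes 10 had a positive fold (median 0.21), among them PER2 (0.49) and CRY1 (0.35), while BMAL1, the activator that PER and CRY proteins oppose, had -0.57. Of 11 hypoxia responsive genes 9 had a positive fold (median 0.12). ADM, the vasodilator peptide adrenomedullin, had 3.72, 7.70 and 9.74 CPM in high-FOS and 2.94, 3.76 and 5.98 CPM in low-FOS animals (fold 0.87 ± 0.23, adjusted p = 0.410).

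Of 15 heat shock genes, 9 had a positive and 6 a negative fold (median 0.09), beside 48.5% positive over all features. With an unadjusted p under 0.05, 4 were higher and 0 lower, beside 3.71% and 2.1% of all features. DNAJB5, a co-chaperone that binds class II histone deacetylases, had 365, 561 and 704 CPM in high-FOS and 208, 288 and 484 CPM in low-FOS animals (fold 0.84 ± 0.20, adjusted p = 0.276). DNAJB4 (0.75), the heat shock factor HSF2 (0.83) and BAG3 (0.41), which clears damaged filamin, were the others. The chaperones DNAJB1 (-0.01), HSP90AA1 (0.11) and HSPD1 (-0.06) lay near 0. The unfolded protein response (12 tested, 6 positive) and NF-kB lists (14 tested, 6 positive) had medians of 0.00 and -0.02, and in the NF-kB list NFKBIZ had 0.53 ± 0.21.

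**Figure D4:**
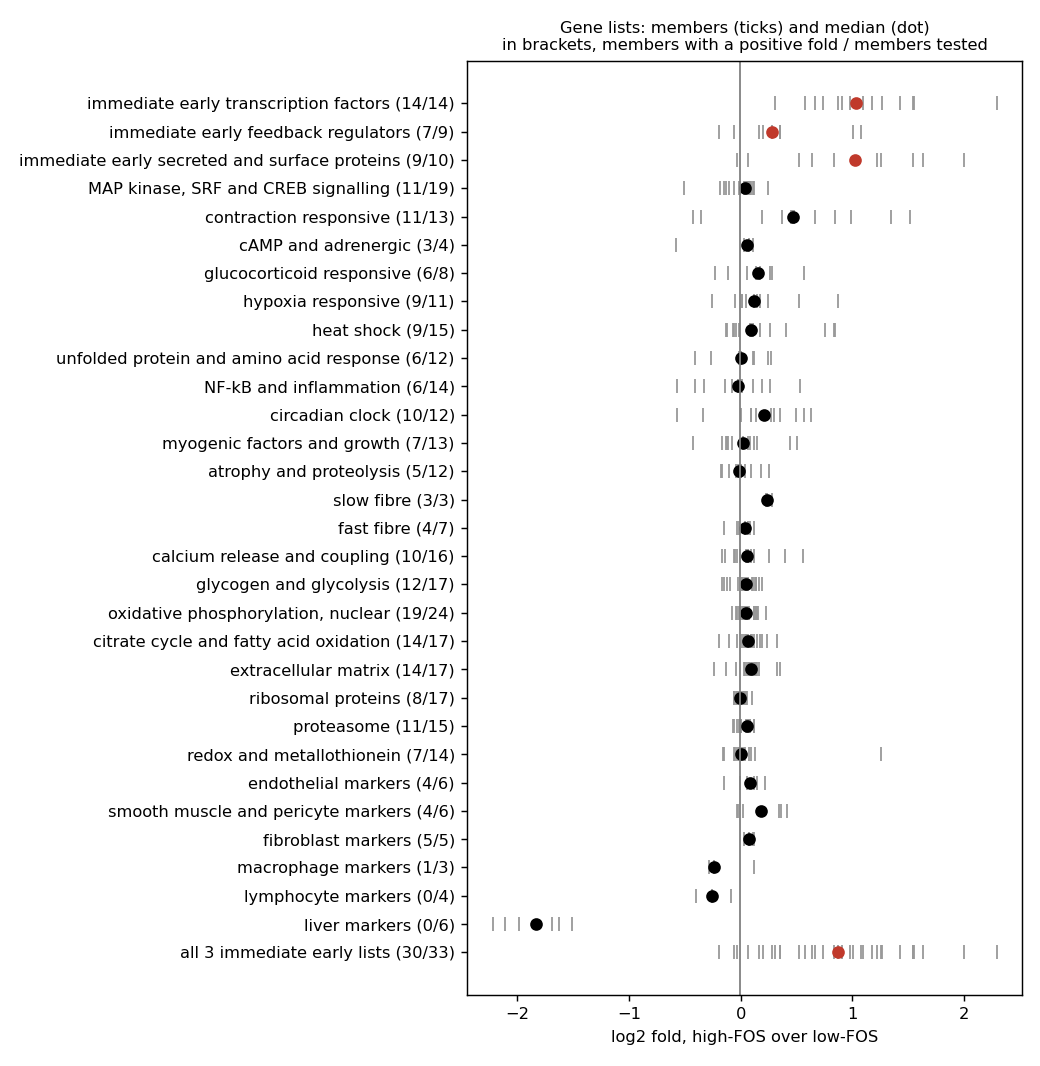
log2 fold (high-FOS over low-FOS) of every tested member (grey ticks) and the median (dot; red for the immediate early lists) of each gene list with at least 3 tested members, with the members of positive fold and the members tested in brackets; the vertical line is the median of all features. The immediate early transcription factors and secreted proteins have medians above 1, the contraction list 0.47, and the metabolic lists lie within 0.1 of the line.

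Fast fibre, metabolic and protein turnover genes had medians near that of all features. Medians were 0.05 for 17 glycogen and glycolysis genes, 0.05 for 24 nuclear oxidative phosphorylation genes, 0.07 for 17 citrate cycle and fatty acid oxidation genes, 0.06 for 16 calcium release genes, 0.04 for 7 fast fibre genes, -0.01 for 17 ribosomal proteins, 0.05 for 15 proteasome genes and -0.01 for 12 atrophy genes. In the same order, positive folds numbered 12, 19, 14, 10, 4, 8, 11 and 5, beside 48.5% positive over all features. In these 8 lists 0 members had an unadjusted p under 0.05. PHKG1, a catalytic subunit of phosphorylase kinase, averaged 195 ± 37.0 CPM in high-FOS and 209 ± 39.7 CPM in low-FOS animals, and PRKAG3, the AMP kinase gamma subunit of muscle, 132 ± 43.9 CPM in high-FOS and 131 ± 37.2 CPM in low-FOS animals. The slow fibre list had a higher median of 0.24, but only 3 of its 11 genes had an ID. These 3 had folds of 0.23 to 0.28, with TNNC1, slow troponin C, at 0.23 ± 0.11 (adjusted p = 0.849). The list scores overlapped, at -0.23 to 0.28 in high-FOS and -0.34 to 0.13 in low-FOS animals. Of 13 myogenic genes 7 had a positive fold, and MEF2C, a factor that calcium signalling activates in muscle, had 191 ± 29.9 CPM in high-FOS and 134 ± 25.5 CPM in low-FOS animals (fold 0.51 ± 0.14, adjusted p = 0.411). Of 17 matrix genes 14 had a positive fold (median 0.09), with the laminin chain LAMC1 at 0.35. In the redox list (14 tested, 7 positive) SRXN1, sulfiredoxin, had 33.3 ± 20.8 CPM in high-FOS and 14.0 ± 6.47 CPM in low-FOS animals (fold 1.25 ± 0.39, adjusted p = 0.577).

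Markers of other cell types were measured in the same libraries, and their part in the early gene folds was not tested. Their counts of positive folds stand beside 48.5% positive over all features. The 6 endothelial markers summed to 210 to 316 CPM in high-FOS and 194 to 292 CPM in low-FOS animals (median fold 0.09, 4 of 6 positive). The 6 smooth muscle and pericyte markers summed to 217 to 325 CPM in high-FOS and 171 to 286 CPM in low-FOS animals (median 0.18, 4 of 6 positive). Their contractile members were on the high side, with TAGLN at 0.42 ± 0.17, CNN1 at 0.36 ± 0.16 and ACTA2 at 0.34, and their surface members PDGFRB (0.02), NOTCH3 (-0.04) and CSPG4 (-0.02) were not. Fibroblast markers summed to 2471 to 4403 CPM in high-FOS and 2264 to 3537 CPM in low-FOS animals (5 of 5 positive, median 0.08).

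The macrophage markers summed to 24.0 to 61.2 CPM in high-FOS and 31.3 to 70.3 CPM in low-FOS animals (1 of 3 positive), and the lymphocyte markers to 3.78 to 7.79 CPM in high-FOS and 3.78 to 14.4 CPM in low-FOS animals (0 of 4 positive). Such small lists are set beside 48.5% positive over all features. Of the neutrophil markers S100A8 alone had an ID, with at most 9 counts in a library, and it was not tested. Liver markers had 0 of 6 positive folds and a median of -1.83, which rested on high drip replicate 2. In that low-FOS animal ALB, serum albumin, was at 311 CPM, while the other 11 animals had at most 56.3 CPM. Without it the fold of ALB was 0.41, against -1.69 with it. HBB, a haemoglobin chain that marks blood, averaged 49.1 ± 24.5 CPM in high-FOS and 67.4 ± 18.3 CPM in low-FOS animals (fold -0.46 ± 0.29).

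Outside the early lists, 5 genes stood among the 10 named genes of smallest p. PRSS23, a secreted serine protease, separated the groups at 134, 177 and 185 CPM in high-FOS and 82.4, 104 and 128 CPM in low-FOS animals (fold 0.71 ± 0.11, adjusted p = 0.0715). HDAC9, a class IIa histone deacetylase that represses MEF2 in muscle, had 2.01, 4.60 and 7.33 CPM in high-FOS and 0.711, 1.36 and 2.14 CPM in low-FOS animals (fold 1.78 ± 0.30, adjusted p = 0.0794). The single overlap for HDAC9 was low drip replicate 3, the high-FOS animal that was also low for HBEGF and LMCD1. PDLIM1, a PDZ and LIM protein that binds α-actinin, had 89.1, 110 and 165 CPM in high-FOS and 55.6, 65.6 and 89.7 CPM in low-FOS animals (fold 0.74 ± 0.15, adjusted p = 0.112). ZNF385B, a zinc finger protein, and SLC35F1, a member of a solute carrier family, separated the groups with folds of 1.47 ± 0.28 and 1.20 ± 0.23 (adjusted p = 0.0995 and 0.0981), at means of 11.7 and 3.37 CPM in high-FOS and 4.24 and 1.47 CPM in low-FOS animals. The other 5 of the 10 were CCN1, EGR1, KLF4, CXCL2 and NR4A2.

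**Figure D5:**
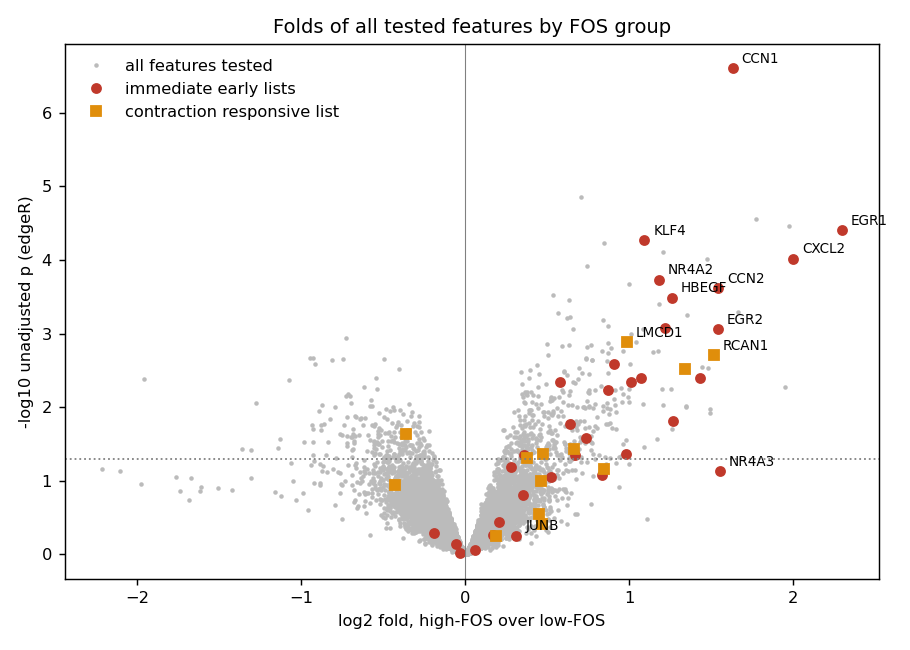
log2 fold (high-FOS over low-FOS) against −log10 of the unadjusted p from edgeR for all 10092 features tested, with the immediate early lists in red and the contraction responsive list in orange; the dotted line marks the unadjusted threshold of 0.05. CCN1 stands alone at the top, EGR1 has the largest fold at 2.29, and 3 of the 33 early genes lie left of 0.

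In all, 20 features (0.198%) had each high-FOS animal above each low-FOS animal, and 10 (0.0991%) had each below. Some were picked out here after their values were seen. WLS, which carries Wnt proteins to the cell surface, had 16.0 to 23.5 CPM in high-FOS and 8.64 to 14.5 CPM in low-FOS animals (fold 0.63 ± 0.14). KREMEN1, a receptor for the Wnt inhibitor Dickkopf, had 8.26 to 10.05 CPM in high-FOS and 5.72 to 8.18 CPM in low-FOS animals (fold 0.44 ± 0.12). SMAD7, the inhibitor of TGF-β signalling, had 5.52 to 10.1 CPM in high-FOS and 4.03 to 5.18 CPM in low-FOS animals (fold 0.63 ± 0.16). HOMER2, a scaffold of calcium signalling, and DNMT3A, a DNA methyltransferase, had folds of 0.39 ± 0.11 and 0.37 ± 0.12. None of these 5 passed the adjusted threshold with edgeR.

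At an unadjusted p under 0.05, features with lower levels in high-FOS muscle numbered 212 and those with higher levels 374. TUBD1, delta tubulin, had 1.88 to 3.43 CPM in high-FOS and 3.49 to 6.40 CPM in low-FOS animals (fold -0.74 ± 0.20). PGAP3, which remodels GPI anchors, had 3.85 to 5.74 CPM in high-FOS and 6.08 to 7.62 CPM in low-FOS animals (fold -0.50 ± 0.14), and RASSF4, a Ras association protein, 0.946 to 1.19 CPM in high-FOS and 1.37 to 2.54 CPM in low-FOS animals (fold -0.82 ± 0.22). COG8, a subunit of a Golgi tethering complex, had 19.6 to 26.7 CPM in high-FOS and 27.0 to 38.1 CPM in low-FOS animals (fold -0.40 ± 0.12). These 4 did not overlap between groups, while RASGRP4, a Ras exchange factor with a fold of -0.93 ± 0.25, did. Adjusted p was between 0.411 and 0.470 for these 5 genes, and 0 features were called lower in any of the 31 settings.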

How the data were processed

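Each deposited table gives unnormalized read counts for genes, made by the authors with TopHat2 2.0.3, Bowtie 0.12.7.0 and HTSeq on the pig build Sscrofa10.2, per the submitters' processing notes; strand setting and annotation are not given in the sources used here, so reads of overlapping genes cannot be told apart. Libraries were TruSeq from total RNA with a RIN above 8.0, per the labels' protocols.

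FOS CPM was the FOS count over the total of all 20741 features without the last 5 HTSeq lines. Symbols matched 10349 of 20300 Ensembl genes. The fit used edgeR 4.0.16 (R 4.3.3; TMM, filterByExpr on the FOS groups, quasi-likelihood F-test, two-sided, Benjamini-Hochberg over 10092 features, threshold 0.05). Folds are log2, high-FOS over low-FOS, ± SE. DESeq2 1.42.0 and limma 3.58.1 were alternatives, with other filters, scalings, terms, group sizes, subsets and single libraries left out. The steps were tested on simulated data. In the fit, p-values set the difference between the FOS groups against the spread between animals within them. The groups were ranked on FOS in the same libraries.

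The groups, lists and genes were chosen with earlier results of these data known. Named genes were all tested immediate early genes, the 10 symbol-bearing genes of smallest p, ALB, HBB, PRKAG3, PHKG1 and FKBP5, and up to 3 members with the smallest p of each other list. The last was narrowed, with values seen, to members with an unadjusted p under 0.05. Other members are named as examples, chosen after their values were seen. Liver transcripts means ALB above 10 CPM.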

Additional observations from a re-analysis of the deposited data

Results flagged for a closer look

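Of 214 groups of 6 animals examined, 17 held a value far from the other 5 by Dixon's criterion. For independent, normally distributed values chance gives this in about 1 group in 20. These groups share the same animals and were not checked for normality, so the 17 cannot be read against that rate. Low drip replicate 6, the low-FOS animal nearest the boundary, was far above the other low-FOS animals for ATF3 (902 CPM), NR4A3 (125 CPM), KLF4 (18.1 CPM), MAFF (76.7 CPM) and HSF2 (89.2 CPM), and its score for the MAP kinase, SRF and CREB list was the lowest of the low-FOS animals at -0.061. High drip replicate 1, also low-FOS, was far above the others for CCL2 (22.1 CPM), PLAU (64.1 CPM) and ADAMTS4 (4.91 CPM) and far below them for SPRY1 (13.8 CPM).

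High drip replicate 2 was far above the other low-FOS animals for ALB (311 CPM) and TNFAIP3 (9.51 CPM), and high drip replicate 6 for TNNC1 (4148 CPM). Among high-FOS animals, low drip replicate 5 was far above the others for PPP1R15A (201 CPM). In the same group, the score of the contraction responsive list was lowest in low drip replicate 3 (-0.28), that of the clock list in low drip replicate 1 (-0.24) and that of the feedback regulators in high drip replicate 3 (-0.21).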

How the results depend on the processing

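The number of features called was 31 with DESeq2, 5 with no filter on low counts, 8 with sex and drip as terms, 4 with these as recorded for the tables, 5 with liver transcripts as a term, 20, 4 and 9 for 5, 4 and 3 animals a side, 6 with log2 FOS as a continuous term, and 0 in males alone, in females alone and, in a setting chosen after seeing the data, without the 3 libraries recorded for another animal. Without single libraries it was 1 to 19. Features called lower were 0 throughout. CCN1 was called in 27 of 31 settings. The 3 immediate early lists kept 27 to 31 positive folds without single libraries, 18 to 21 of them with an unadjusted p under 0.05, and medians of 0.72 to 0.99; libraries with liver transcripts alone had 13 at that p, and males alone a median of 1.18. With tables as recorded, p was 1 for drip and 0.918 for age, whose difference turned round; with 5 animals a side, p was 1 for liver transcripts.

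Of 73 named genes, 60 kept their sign in all 30 alternatives. Many of the 73 were chosen in these same data for a small p or for groups without overlap, which favours a kept sign. The count is therefore no measure of stability. Without single libraries, folds ranged from -0.17 to 0.77 for JUNB, -0.011 to 0.33 for DUSP4, -0.34 to 0.18 for TNFAIP3, -0.34 to 0.76 for CCL2, -0.14 to 0.57 for PLAU, -2.33 to 0.41 for ALB, -0.11 to 0.14 for PRKAG3 and -0.19 to 0.27 for FKBP5. Reversed folds in males alone were -0.22 for NFKBIA, 0.15 for TNFAIP3, 1.33 for CCL2, 1.87 for ALB, -0.71 for PRKAG3 and -0.96 for FKBP5, and in females alone -0.99 for JUNB, -0.10 for DUSP4, 0.052 for SPRED2, -0.86 for PLAU and -0.29 for ADAMTS4. In libraries with liver transcripts they were -0.038 for JUNB, 0.17 for SPRED2, -0.14 for NFKBIA, -0.43 for PLAU, 0.12 for HBB, -0.15 for PRKAG3 and -0.61 for FKBP5, and in those without 0.19 for TNFAIP3, 0.87 for CCL2 and -0.11 for PER2. With sex and drip as terms they were 0.036 for SPRED2, -0.059 for NFKBIA, 0.23 for CCL2, -0.14 for PRKAG3 and -0.43 for FKBP5, and with these as recorded 0.029 for SPRED2, 0.071 for CCL2, -0.17 for PRKAG3 and -0.020 for FKBP5. With liver transcripts as a term they were 0.11 for CCL2, -0.020 for PRKAG3 and -0.034 for FKBP5. For 5, 4 and 3 animals a side CCL2 had 0.051, 0.74 and 0.91 and PRKAG3 -0.14, -0.099 and -0.026; PLAU had -0.0029 with 5 and FKBP5 -0.0042 with 3. With continuous FOS, NFKBIA had -0.00061 and CCL2 0.19, and with voom CCL2 had 0.035 and PRKAG3 -0.013. Without the 3 libraries recorded for another animal, folds were 0.018 for SPRED2, 0.11 for TNFAIP3, -0.090 for PLAU, 0.97 for ALB, -0.15 for PRKAG3 and -0.58 for FKBP5. The cause of these changes was not tested. No paired analysis was possible because the labels give no replicate numbers; those used here were given in accession order, only name the animals and pair none of them. Genes at 1 to 4 CPM rest on few reads, and their folds are the least precise.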
